A study of Homo sapiens with 10 samples.

Results

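The subunit genes of oxidative phosphorylation were described in RPE p53-/- cells, human retinal pigment epithelium cells in culture that lack p53, with CCAR1 knocked out and in the parental line. Members were taken by gene name: the NDUF genes of complex I, the SDH genes of complex II, the UQCR genes of complex III, the COX subunit genes of complex IV, the ATP5 genes of ATP synthase (complex V), and the protein-coding genes of mitochondrial DNA. The name rule found 161 of the 62700 genes in the table, of which 83 are nuclear protein-coding genes, 13 are encoded in mitochondrial DNA and 65 are annotated as pseudogenes. After the filter on low counts, 78 of the 83 nuclear genes, all 13 mitochondrially encoded genes and 5 of the 65 pseudogenes were tested. UQCRHL, COX6B2, COX7B2, COX8C and ATP5MGL were too low to be tested over all 10 libraries, and 23 pseudogenes had no count in any library.

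Oxidative phosphorylation couples the oxidation of NADH and succinate to the synthesis of ATP across the inner mitochondrial membrane. Complexes I and II pass electrons to ubiquinone, complex III passes them on to cytochrome c, complex IV delivers them to oxygen, and ATP synthase uses the proton gradient that complexes I, III and IV build. Complex II is built from nuclear genes alone, whereas the others combine subunits made in the cytosol with a few made inside the mitochondrion, so their assembly draws on both genomes.

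Polyadenylated RNA was sequenced from 5 CCAR1 knockout and 5 parental samples of the p53-deficient line, all grown in the same serum-containing medium, and the series asks what loss of CCAR1, which its title calls a splicing factor, changes across the genome. Whether replicates are independent cultures, and whether the knockout is a single clone, is not in the labels, so the p-values cover only the variation among these 10 samples and part of it may be technical. Libraries held 52.6 to 65.2 M estimated counts (M, 1000000) in replicates 1 to 3 of both genotypes and 320.6 to 385.4 M in replicates 4 and 5, and these replicate sets are given apart below. CCAR1 itself was at 92.3, 95.6, 88.5, 126 and 126 CPM (counts per 1000000 of the scaled library) in knockout replicates 1 to 5, against 125, 133, 134, 173 and 173 CPM in parental replicates 1 to 5. Its log2 fold change, knockout over parental as everywhere below, was -0.48 (edgeR adjusted p = 0.0201, 2.16e-06 with the replicate number as a block), and that call was lost without parental replicate 5. Of the defining pigment epithelium markers, RPE65 stayed at or under 0.189 CPM and RLBP1 at or under 0.112 CPM in all 10 libraries, while MITF lay between 30.9 and 47.1 CPM and OTX2 between 10.1 and 18.3 CPM. With BEST1, PMEL, TYRP1, KRT8 and KRT18 the 9 listed markers summed to 350 to 518 CPM per library. Of the 6 tested, OTX2 and BEST1 were called higher at an edgeR adjusted p under 0.05 and 0 lower, beside 19.7% and 16.9% of all genes. With the block 2 were higher and 2 lower, beside 31.1% and 30.1%. Skeletal muscle markers summed to 497, 233 and 369 CPM in knockout replicates 1 to 3 and to 456, 569 and 390 CPM in parental replicates 1 to 3, but to no more than 0.391 CPM in any of replicates 4 and 5. Erythroid markers summed to 47.6, 190 and 55.5 CPM in knockout replicates 1 to 3, against 36.1, 126 and 50.6 CPM in parental replicates 1 to 3, and liver markers to 54.1, 72.1 and 39.6 CPM in knockout replicates 1 to 3, against 26.3, 66.5 and 58.6 CPM in parental replicates 1 to 3. In replicates 4 and 5 these sums were at most 0.283 and 1.60 CPM, and the part of such transcripts in the results was not tested. Bulk libraries cannot tell apart a change in the number of cells of a type from a change in RNA per cell.

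Most nuclear subunit genes sat slightly higher in knockout cells, and few of them passed the test over all 10 libraries. Of the 78 nuclear genes tested, 67 had a fold change above 0 and 11 below 0, with a median log2 fold change of 0.226 beside 0.0166 over all 18979 genes tested. At an edgeR adjusted p under 0.05, 10 rose and 3 fell, which is 12.8% and 3.85% of them, beside 19.7% and 16.9% of all genes tested (36.6% in either direction). The genes that rose were NDUFV2, NDUFV3, NDUFB5, NDUFB1 and NDUFS5 of complex I, SDHC of complex II, UQCRB of complex III, COX7C and COX7B of complex IV and ATP5MC3 of ATP synthase. NDUFA5 and NDUFA9 of complex I and ATP5F1C of ATP synthase fell. The number that rose was 5 without knockout replicate 2, knockout replicate 3 or parental replicate 4, 6 without parental replicate 5, 16 without knockout replicate 4 and 18 without knockout replicate 5.

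The difference between the replicate sets was larger for these genes than the difference between genotypes. In 68 of the 78 nuclear genes the mean of replicates 4 and 5 lay below that of replicates 1 to 3, and the median log2 difference between the sets was -0.425, beside 0.000973 over all genes. With the replicate number as a block, 48 nuclear genes rose and 6 fell, or 61.5% and 7.69% of them, beside 31.1% and 30.1% of all genes. The medians changed little, to 0.201 for the nuclear subunits and 0.0145 for all genes. In replicates 1 to 3 alone 47 of 78 rose and 3 fell (60.3% and 3.85%, beside 26.5% and 26.2% of all genes), with a median of 0.284. In replicates 4 and 5 alone 33 of 79 rose and 11 fell (41.8% and 13.9%, beside 28.9% and 28.1%), with a median of 0.0842. The filter on low counts was applied anew there, and the 79 hold 77 of the 78 genes with UQCRHL and COX6B2 added. Both are among the 33 that rose, although they were too low to be tested over all 10 libraries.

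Separation of the libraries was counted as well. Over all 10 libraries, 7 nuclear genes had every knockout library above every parental one and 3 had every one below, beside 16.0% and 14.6% of all genes. Within replicates 1 to 3 these counts were 48 and 3 of 78, beside 30.6% and 29.0% of all genes, and within replicates 4 and 5 they were 45 and 12, beside 42.8% and 42.0%. In both sets at once 40 were apart above and 3 below, beside 27.1% and 26.9%.

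**Figure D1:**
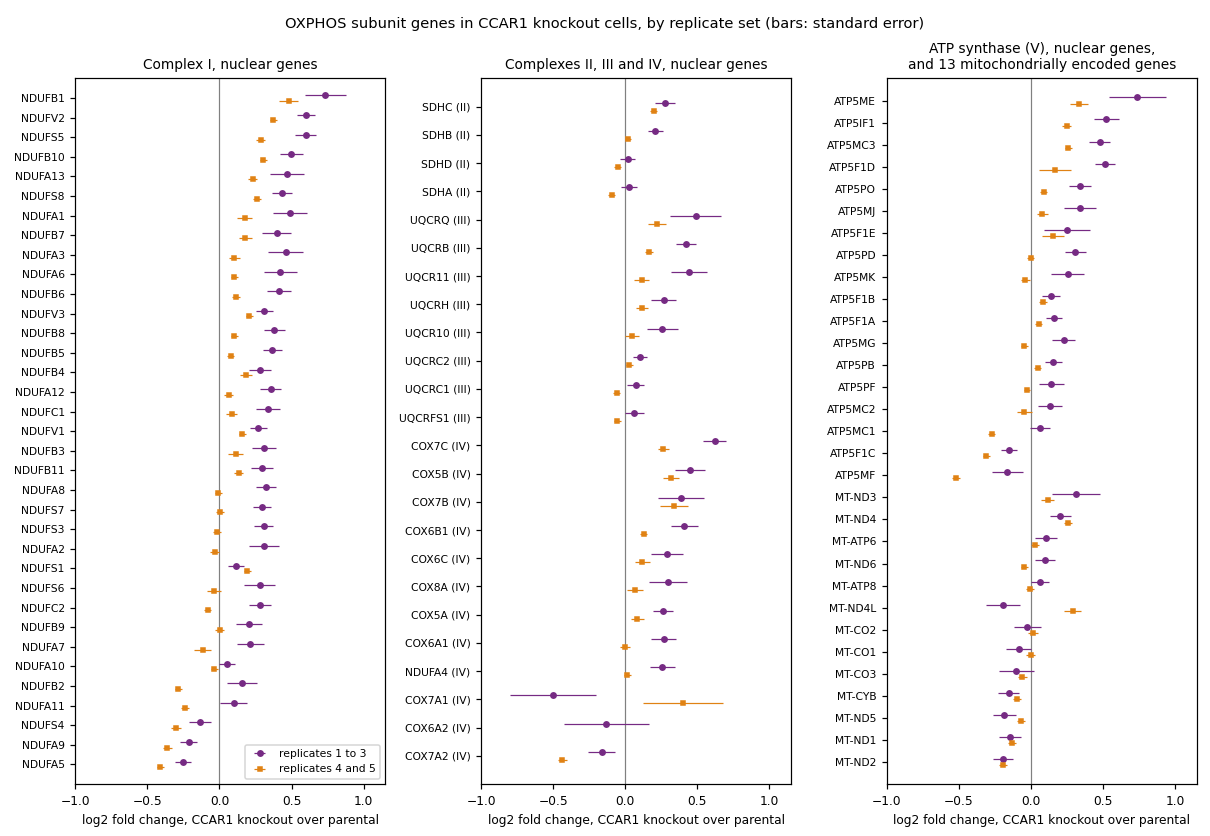
Log2 fold change, CCAR1 knockout over parental, of the tested subunit genes (1 nuclear gene of complex I is not drawn) in replicates 1 to 3 alone (purple circles) and in replicates 4 and 5 alone (orange squares), with bars for the standard error. Most nuclear genes lie above 0 in both sets and closer to 0 in replicates 4 and 5, NDUFA5, NDUFA9 and ATP5F1C lie below 0 in both, and the 13 mitochondrially encoded genes, at the lower right, lie on both sides of 0.

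The genotype difference was tested against the replicate set directly. No subunit gene passed an edgeR adjusted p of 0.05 for the interaction of genotype with replicate set, beside 0.601% of all genes, whereas 25 of the 78 nuclear genes had an unadjusted p under 0.05. In all 25 the log2 fold change was lower in replicates 4 and 5 than in replicates 1 to 3, as it was in 2184 of the 3271 genes with such a p among all those tested. Some of the nuclear genes turned sign, such as NDUFB2, with log2 fold changes of 0.16 in replicates 1 to 3 and -0.28 in replicates 4 and 5. Without the filter on low counts 31 subunit genes passed, beside 2.73% of the 45973 genes in that fit. In the fit without knockout replicate 1, 56 nuclear genes passed, beside 12.5% of its 19557 genes. Each of these fits tested another set of genes than the 18979 above. Knockout replicate 1 was the lowest of knockout replicates 1 to 3 in 73 of the 78 nuclear genes and knockout replicate 3 the highest in 66. Knockout replicate 1 also had the largest summed skeletal muscle level of the knockout libraries, and the part of either difference in the results was not tested.

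Summed over each complex, the transcripts of the nuclear subunits were higher in every knockout library than in the parental libraries of its replicate set for complexes I, III and IV and for ATP synthase. Complex I summed to 2786, 3189, 3460, 2114 and 2114 CPM in knockout replicates 1 to 5, against 2564, 2522, 2519, 1948 and 2038 CPM in parental replicates 1 to 5. The knockout sum was 1.24 times the parental one in replicates 1 to 3 and 1.06 times in replicates 4 and 5. For complex IV these ratios were 1.26 and 1.08, for complex III 1.19 and 1.05, and for ATP synthase 1.16 and 1.04. Pooled over all 10 libraries the genotypes overlapped in each of these sums, because the parental libraries of replicates 1 to 3 lay above the knockout libraries of replicates 4 and 5.

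**Figure D2:**
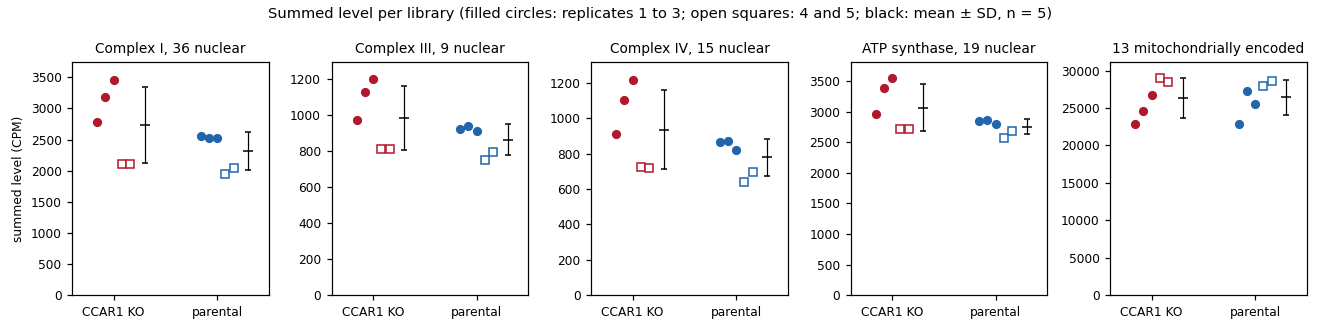
Summed level in CPM of the nuclear genes of complexes I, III and IV and of ATP synthase and of the 13 mitochondrially encoded genes in each library, CCAR1 knockout left and parental right, with filled circles for replicates 1 to 3, open squares for replicates 4 and 5 and black marks for the mean ± SD (n = 5). In the nuclear panels the knockout libraries of each set lie above the parental libraries of that set, by 1.16 to 1.26 times in replicates 1 to 3 and by 1.04 to 1.08 times in replicates 4 and 5, while the mitochondrial panel shows overlap in both sets.

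The sequence around the transcription starts of the nuclear subunit genes was searched for motifs of factors known to act on respiratory genes. RefSeq promoters (GRCh38.p14, 250 bases before to 50 after the start) matched 67 of the 83 nuclear genes. The NRF1 motif CGCATGCG, which reads the same on both strands, was found in 10 of the 67 promoters (14.9%) and in 2.19% of all 27305 promoters. The ETS motif CCGGAAGT, on either strand, was found in 10 (14.9%) and in 4.44% of all, and the YY1 motif AAGATGGCG, on either strand, in 8 (11.9%) and in 1.85% of all. A match describes the letters only, and none of the 3 motifs contains another. These counts do not depend on genotype, the promoters of genes that rose were not compared with the rest, and all promoters include those of genes not tested. The promoters below were chosen to show each motif and a case without any of them, with matches in capitals. COX5B, a subunit of complex IV (chr2:97645812-97646111, plus strand), holds the ETS motif at 2 places. SDHD, a membrane anchor of complex II (chr11:112086623-112086922, plus strand), holds the NRF1 and the ETS motif. NDUFA9, which fell (chr12:4648864-4649163, plus strand), holds the YY1 motif, and NDUFV2, which rose (chr18:9102449-9102748, plus strand), holds none of the 3.
COX5B: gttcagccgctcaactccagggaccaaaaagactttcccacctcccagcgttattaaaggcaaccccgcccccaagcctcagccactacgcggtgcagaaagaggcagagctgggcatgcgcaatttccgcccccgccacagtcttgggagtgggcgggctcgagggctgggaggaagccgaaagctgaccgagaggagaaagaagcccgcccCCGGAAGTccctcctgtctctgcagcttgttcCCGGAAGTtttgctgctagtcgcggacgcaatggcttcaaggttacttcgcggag
SDHD: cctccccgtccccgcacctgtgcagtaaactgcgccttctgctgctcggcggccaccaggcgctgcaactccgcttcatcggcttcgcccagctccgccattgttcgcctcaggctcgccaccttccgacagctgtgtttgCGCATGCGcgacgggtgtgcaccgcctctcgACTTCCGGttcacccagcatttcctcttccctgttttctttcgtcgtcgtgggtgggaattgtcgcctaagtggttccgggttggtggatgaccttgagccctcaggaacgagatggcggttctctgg
NDUFA9: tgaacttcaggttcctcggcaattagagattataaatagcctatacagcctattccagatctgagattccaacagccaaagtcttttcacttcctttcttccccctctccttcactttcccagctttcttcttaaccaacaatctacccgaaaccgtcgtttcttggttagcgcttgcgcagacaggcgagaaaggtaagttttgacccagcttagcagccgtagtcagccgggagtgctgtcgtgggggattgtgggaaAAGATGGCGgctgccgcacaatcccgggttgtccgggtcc
NDUFV2: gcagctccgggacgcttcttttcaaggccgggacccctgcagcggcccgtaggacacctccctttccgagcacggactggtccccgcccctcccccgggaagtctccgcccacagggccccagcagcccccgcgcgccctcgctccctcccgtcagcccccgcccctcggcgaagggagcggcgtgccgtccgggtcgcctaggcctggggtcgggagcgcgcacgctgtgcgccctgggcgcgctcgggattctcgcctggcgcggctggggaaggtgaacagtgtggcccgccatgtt
Of the genes shown with an ETS motif, COX5B had a log2 fold change of 0.42 (edgeR adjusted p = 0.0890, 0.000745 with the block) and SDHD of -0.00091 (adjusted p = 0.993).

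Complex I has 36 nuclear subunit genes, all tested, of which 7 encode core subunits that carry the flavin and iron-sulfur centres and 29 encode accessory subunits. For this and the other complexes, counts with the block stand beside 31.1% and 30.1% of all genes called higher and lower, and counts without it beside 19.7% and 16.9%. NDUFV2 (ENSG00000178127.13, chromosome 18, 9102630 to 9134345, hg38), an iron-sulfur core subunit of the arm that oxidises NADH, was at 79.1, 88.6, 93.0, 76.1 and 76.0 CPM in knockout replicates 1 to 5, against 54.1, 59.2, 57.9, 56.5 and 59.5 CPM in parental replicates 1 to 5. Every knockout library lay above every parental library, in both replicate sets. The log2 fold change of NDUFV2 was 0.52 (standard error 0.073, edgeR adjusted p = 0.000265), and the call held when each library was left out. A two-sided exact permutation of log2 CPM gave p = 0.00794, which no arrangement of 5 against 5 can undercut.

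NDUFV3 (ENSG00000160194.18, chromosome 21, 42879644 to 42913304), an accessory subunit next to NDUFV2, had 50.9, 53.9, 55.4, 49.1 and 50.5 CPM in knockout replicates 1 to 5, against 45.1, 42.5, 40.8, 42.5 and 42.8 CPM in parental replicates 1 to 5. The ranges were apart, with a log2 fold change of 0.28 (edgeR adjusted p = 0.00299). NDUFB5 (ENSG00000136521.13, chromosome 3, 179604690 to 179627647), a membrane-arm accessory subunit, averaged 46.2 ± 3.17 CPM in knockout and 38.6 ± 2.87 CPM in parental cells (SD, n = 5 each). Its ranges were also apart, and its log2 fold change was 0.26 (edgeR adjusted p = 0.0174), which without parental replicate 2 became an adjusted p of 0.0541.

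NDUFB1 (ENSG00000183648.11, chromosome 14, 92116122 to 92121917), a small membrane-arm subunit, had the largest fold change of the complex I genes that passed. It was at 27.9, 33.8, 41.4, 21.6 and 21.2 CPM in knockout replicates 1 to 5, against 20.8, 21.7, 19.2, 14.1 and 16.2 CPM in parental replicates 1 to 5. The knockout libraries were higher within each replicate set, while the pooled ranges met, and the log2 fold change was 0.67 (standard error 0.20, edgeR adjusted p = 0.0243). The call was lost in the fits without knockout replicate 2 or 3 or parental replicate 4 or 5, with edgeR adjusted p up to 0.0638. NDUFS5, an accessory subunit on the side of the intermembrane space, averaged 145 ± 35.9 CPM in knockout and 102 ± 13.1 CPM in parental cells (log2 fold change 0.51, edgeR adjusted p = 0.0370). Its call was lost in 7 of the 10 fits that left out a library, and held without knockout replicate 4 or 5 or parental replicate 3.

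Among the other core subunits, NDUFV1, which binds the flavin, had a log2 fold change of 0.24 with the block (edgeR adjusted p = 0.00169, against 0.224 without the block), and NDUFS8, an iron-sulfur subunit, had 0.37 (edgeR adjusted p = 0.000401, against 0.116 without the block). NDUFS1, the largest core subunit, was at 108, 103, 95.0, 135 and 137 CPM in knockout replicates 1 to 5, against 94.4, 93.2, 93.1, 118 and 117 CPM in parental replicates 1 to 5. Unlike most nuclear subunit genes it was higher in replicates 4 and 5 than in replicates 1 to 3, and it rose with the block (log2 fold change 0.16, edgeR adjusted p = 0.00584). Of the 29 accessory subunits 18 rose and 3 fell with the block, beside 31.1% and 30.1% of all genes, against 4 and 2 without it, beside 19.7% and 16.9%. Without the block 20.7% of the accessory subunits were called in either direction, below the 36.6% of all genes. With it 72.4% were called, beside 11619 of all 18979 genes. In replicates 4 and 5 alone, NDUFA11, NDUFB2 and NDUFC2 were lower in knockout cells, although NDUFC2 was higher in replicates 1 to 3 (log2 fold change 0.28).

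NDUFA5 and NDUFA9, accessory subunits of the arm that reduces ubiquinone, went the other way from most of the complex. NDUFA5 (ENSG00000128609.16, chromosome 7, 123536997 to 123558255) was at 41.0, 46.2, 42.3, 45.3 and 45.2 CPM in knockout replicates 1 to 5, against 50.6, 51.8, 51.3, 59.0 and 60.1 CPM in parental replicates 1 to 5. NDUFA9 (ENSG00000139180.11, chromosome 12, 4649095 to 4694317) was at 51.3, 56.0, 58.3, 54.5 and 52.6 CPM in knockout replicates 1 to 5, against 62.7, 66.5, 62.0, 65.7 and 70.3 CPM in parental replicates 1 to 5. For both genes every knockout library lay below every parental one. The log2 fold changes were -0.31 for NDUFA5 (edgeR adjusted p = 0.00632) and -0.26 for NDUFA9 (edgeR adjusted p = 0.00634), and both calls held when each library was left out. Chromosome medians, here and below, are over the protein-coding genes tested. On chromosome 7 their median log2 fold change was -0.298 in these cells. With the median of each chromosome subtracted NDUFA5 was at -0.012 (edgeR adjusted p = 0.932) and NDUFA9 at -0.19 (adjusted p = 0.0336). NDUFS4, an accessory subunit of the NADH-oxidising arm on chromosome 5, fell with the block (log2 fold change -0.20, edgeR adjusted p = 0.00475), in replicates 4 and 5 alone (-0.30, edgeR adjusted p = 2.81e-06) and with the length trend removed (edgeR adjusted p = 0.0288), but did not pass over all 10 libraries without these terms (edgeR adjusted p = 0.169).

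**Figure D3:**
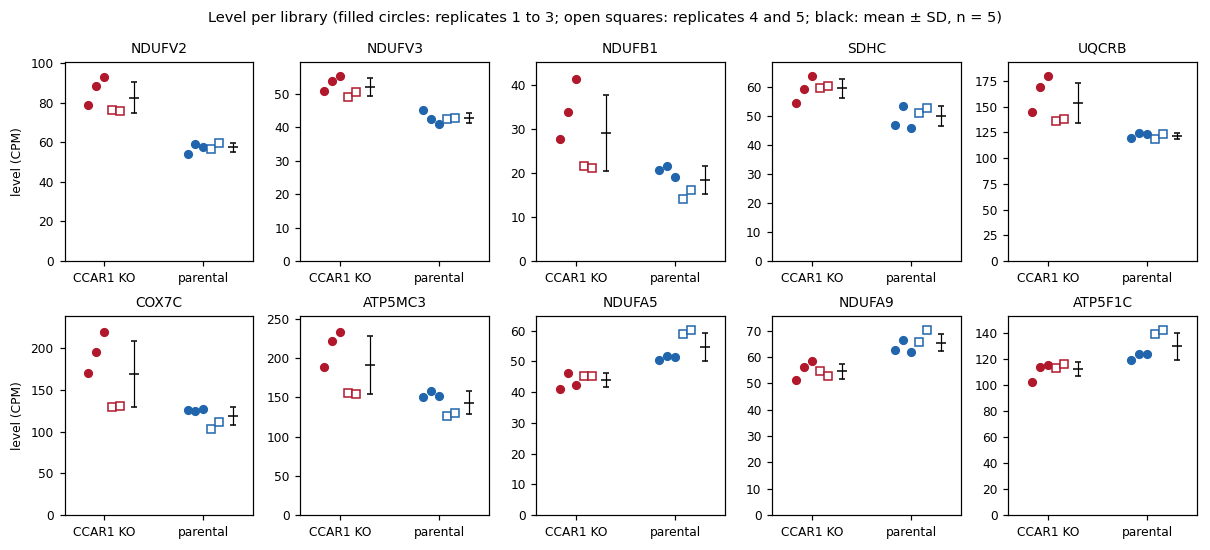
Level in CPM of 10 subunit genes in each library, CCAR1 knockout left and parental right, with filled circles for replicates 1 to 3, open squares for replicates 4 and 5 and black marks for the mean ± SD (n = 5). NDUFV2, NDUFV3, SDHC, UQCRB and COX7C have every knockout library above every parental one and NDUFA5, NDUFA9 and ATP5F1C have every one below, while NDUFB1 and ATP5MC3 overlap when the replicate sets are pooled.

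Among the 4 genes of complex II, which oxidises succinate and also serves the citric acid cycle, only SDHC passed. SDHC (ENSG00000143252.16, chromosome 1, 161314257 to 161375340), a membrane anchor, was at 54.8, 59.4, 64.0, 59.8 and 60.6 CPM in knockout replicates 1 to 5, against 47.0, 53.6, 45.8, 51.1 and 52.8 CPM in parental replicates 1 to 5. The ranges were apart, and the log2 fold change was 0.25 (standard error 0.068, edgeR adjusted p = 0.0136). SDHD, the other membrane anchor, averaged 76.6 ± 3.10 CPM in knockout and 76.7 ± 4.12 CPM in parental cells, and SDHA, the flavoprotein, 173 ± 20.5 CPM in knockout and 174 ± 14.6 CPM in parental cells (SD, n = 5 each). SDHB, the iron-sulfur subunit, had a log2 fold change of 0.15 (edgeR adjusted p = 0.134, and 0.0202 with the block). SDHA was lower in knockout replicates 4 and 5, at 150 and 152 CPM, against 159 and 160 CPM in the parental replicates 4 and 5 (edgeR adjusted p = 0.00194 in these replicates alone).

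In complex III, UQCRB (ENSG00000156467.10, chromosome 8, 96225920 to 96235634), a small subunit near the ubiquinone site, was the gene that passed among the 8 tested. It was at 145, 169, 179, 136 and 138 CPM in knockout replicates 1 to 5, against 119, 125, 123, 118 and 123 CPM in parental replicates 1 to 5. No libraries overlapped between the genotypes, the log2 fold change was 0.33 (edgeR adjusted p = 0.0100), and the call held when each library was left out. With the block 4 of the 8 rose, the others being UQCRH, UQCRQ and UQCR11, and none fell. UQCRC1 and UQCRFS1, the Rieske iron-sulfur protein, were chosen after their values were seen and had small differences. UQCRC1 was at 234 ± 41.9 CPM in knockout and 228 ± 31.0 CPM in parental cells, and UQCRFS1 at 74.1 ± 5.66 CPM in knockout and 72.7 ± 1.59 CPM in parental cells (SD, n = 5 each). UQCRHL, an intron-less copy of UQCRH, was at most 0.447 CPM in any library.

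In complex IV, COX7C and COX7B, small subunits without redox centres, rose. COX7C (ENSG00000127184.13, chromosome 5, 86617904 to 86620962) was at 170, 195, 219, 130 and 131 CPM in knockout replicates 1 to 5, against 126, 125, 127, 103 and 112 CPM in parental replicates 1 to 5. All knockout libraries lay above all parental ones, and the log2 fold change was 0.51 (standard error 0.15, edgeR adjusted p = 0.0215). COX7B (ENSG00000131174.7, chromosome X, 77899438 to 77907373) averaged 54.4 ± 9.21 CPM in knockout and 41.9 ± 4.15 CPM in parental cells (SD, n = 5 each; log2 fold change 0.38, edgeR adjusted p = 0.0293), and its pooled ranges met. The COX7C call was lost without knockout replicate 2 or 3 or parental replicate 4. The COX7B call was lost in 6 of the 10 fits that left out a library, and held without knockout replicate 1, 4 or 5 or parental replicate 2. With the block 6 of the 12 tested rose, among them COX5A, COX5B, COX6B1 and COX6C, and COX7A2 fell.

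Several complex IV subunits have tissue-specific partners, and these were near background. COX6A2 and COX7A1, the heart and muscle isoforms, were at 1.53, 0.654 and 1.17 CPM and at 1.15, 0.500 and 1.10 CPM in knockout replicates 1 to 3, against 1.20, 1.56 and 0.902 CPM and 1.35, 1.59 and 0.937 CPM in parental replicates 1 to 3. In replicates 4 and 5 of both genotypes COX6A2 was at or under 0.00264 CPM and COX7A1 at or under 0.176 CPM, the same split as in the skeletal muscle markers. Their ubiquitous counterparts were far higher in both sets: COX6A1 averaged 120 ± 34.2 CPM in knockout and 105 ± 18.8 CPM in parental cells, and COX7A2 59.5 ± 15.3 CPM in knockout and 70.4 ± 10.2 CPM in parental cells (SD, n = 5 each). COX7A2, on chromosome 6, fell with the block (log2 fold change -0.27, edgeR adjusted p = 0.00870, against 0.331 without it), in a chromosome whose genes had a median of -0.322. The testis isoforms COX6B2, COX7B2 and COX8C were at most 0.279, 0.00529 and 0.0186 CPM in any library, beside 90.4 ± 25.9 CPM of COX6B1 and 168 ± 55.2 CPM of COX8A in knockout cells, and 71.7 ± 12.3 and 142 ± 32.2 CPM in parental cells.

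NDUFA4, first assigned to complex I and now known as a complex IV subunit, averaged 60.8 ± 10.4 CPM in knockout and 53.6 ± 3.08 CPM in parental cells (log2 fold change 0.18, edgeR adjusted p = 0.246). It lies on chromosome 7, and with the chromosome medians subtracted its fold change was 0.48 (edgeR adjusted p = 0.00733). NDUFA4L2, its hypoxia-induced paralog and not caught by the name rule, was at 0.410, 0.750, 0.611, 0.347 and 0.327 CPM in knockout replicates 1 to 5, against 0.189, 0.177, 0.141, 0.103 and 0.116 CPM in parental replicates 1 to 5. Every knockout library was above every parental one at these low levels, with a log2 fold change of 1.77 (edgeR adjusted p = 0.00102). COX4I1, the ubiquitous subunit IV gene, averaged 256 ± 74.3 CPM in knockout and 208 ± 35.2 CPM in parental cells (edgeR adjusted p = 0.291, and 0.00819 with the block), and COX4I2, its lung isoform, was at or under 0.0157 CPM.

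Of the 18 tested nuclear genes of ATP synthase, ATP5MC3 rose and ATP5F1C fell. ATP5MC3 (ENSG00000154518.10, chromosome 2, 175176258 to 175184607) encodes the membrane c-ring subunit, as do ATP5MC1 and ATP5MC2, and was at 188, 223, 234, 156 and 154 CPM in knockout replicates 1 to 5, against 151, 159, 151, 127 and 130 CPM in parental replicates 1 to 5. Knockout libraries were higher within each replicate set, and the log2 fold change was 0.41 (standard error 0.13, edgeR adjusted p = 0.0307), lost in 6 of the 10 fits that left out a library and kept without knockout replicate 4 or 5 or parental replicate 1 or 2. ATP5MC1 averaged 85.3 ± 22.5 CPM in knockout and 87.2 ± 11.9 CPM in parental cells, and ATP5MC2 148 ± 26.3 CPM in knockout and 140 ± 13.1 CPM in parental cells (SD, n = 5 each). Neither passed over all 10 libraries, with log2 fold changes of -0.03 for ATP5MC1 and 0.08 for ATP5MC2. In replicates 4 and 5 alone ATP5MC1 was called lower in knockout cells, at an edgeR adjusted p under 0.05. With chromosome medians removed ATP5MC1, on chromosome 17 with its median of -0.282, was at 0.25 (edgeR adjusted p = 0.336), ATP5MC2 at 0.15 (edgeR adjusted p = 0.395) and ATP5MC3 at 0.36 (edgeR adjusted p = 0.0555).

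ATP5F1C (ENSG00000165629.20, chromosome 10, 7788129 to 7807815), the central-stalk gamma subunit, was at 102, 114, 116, 114 and 116 CPM in knockout replicates 1 to 5, against 119, 124, 124, 139 and 142 CPM in parental replicates 1 to 5. The ranges were apart and the log2 fold change was -0.21 (edgeR adjusted p = 0.0361), a call lost without knockout replicate 1 or 4 or parental replicate 4 or 5. Subtracting the chromosome 10 median of -0.176 left -0.03 (edgeR adjusted p = 0.782). ATP5F1B, the catalytic beta subunit and the most abundant nuclear member in CPM, lay between 769 and 840 CPM in knockout cells and between 711 and 745 CPM in parental cells, apart in every library yet with an edgeR adjusted p of 0.0601 (0.0216 with the block). With the block 11 of the 18 rose, and ATP5MF, a membrane subunit on chromosome 7, fell beside ATP5F1C (log2 fold change -0.30, edgeR adjusted p = 0.0134). ATP5ME, a membrane subunit of the dimer interface, had the largest fold change of the ATP synthase genes with the block (0.57, edgeR adjusted p = 0.00599). ATP5IF1, the inhibitor that binds the enzyme when the proton gradient fails, had 0.42 (edgeR adjusted p = 0.000611 with the block).

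Few transcripts encoded in mitochondrial DNA passed a test. The 13 mRNAs summed to 22880, 24610, 26690, 29090 and 28490 CPM in knockout replicates 1 to 5, against 22840, 27300, 25540, 27950 and 28600 CPM in parental replicates 1 to 5. The genotypes overlapped in both replicate sets, and the knockout mean was 0.997 times the parental mean. Over all 10 libraries edgeR called 0 of the 13 at an adjusted p of 0.05, with 1 at an unadjusted p under 0.05, limma-voom called 0, and DESeq2 called 2 lower, MT-ND1 and MT-ND2, beside 20.8% of all genes. The ratio of the mitochondrial to the nuclear sum was 2.85, 2.67 and 2.71 in knockout replicates 1 to 3, against 3.01, 3.60 and 3.43 in parental replicates 1 to 3. In replicates 4 and 5 it was 4.32 and 4.23 in knockout, against 4.45 and 4.35 in parental cells, so it was lower in knockout libraries within each set.

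**Figure D4:**
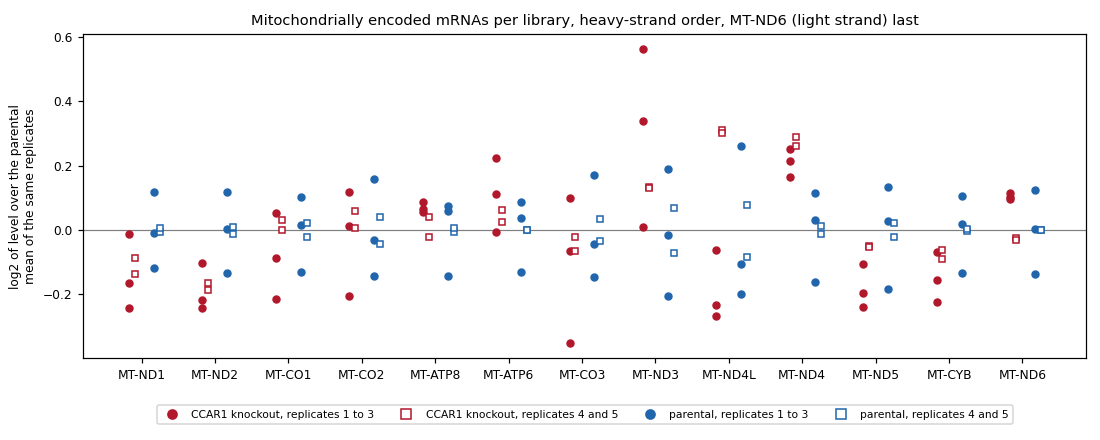
Log2 of the level of each mitochondrially encoded mRNA in each library over the parental mean of the same replicate set, CCAR1 knockout (red) left of parental (blue), filled circles for replicates 1 to 3 and open squares for replicates 4 and 5. MT-ND4 has all knockout points above the parental points of its set, while MT-ND1, MT-ND2 and MT-CYB have knockout replicates 4 and 5 below the parental ones and overlap in replicates 1 to 3.

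Single mitochondrial genes differed by small amounts in both directions with the block, where 2 rose and 3 fell. These are 15.4% and 23.1% of the 13, below the 31.1% and 30.1% of all genes in that fit. MT-ND4 (complex I, mitochondrial positions 10760 to 12137) was at 2925, 3023, 3102, 4042 and 3961 CPM in knockout replicates 1 to 5, against 2329, 2825, 2666, 3333 and 3280 CPM in parental replicates 1 to 5. It was the only one of the 13 with the genotypes apart in both replicate sets, and its log2 fold change was 0.24 (edgeR adjusted p = 0.182, and 0.00157 with the block). MT-ND3 had 0.24 with the block (edgeR adjusted p = 0.0110), from 590, 742, 865, 586 and 584 CPM in knockout replicates 1 to 5, against 509, 669, 581, 508 and 560 CPM in parental replicates 1 to 5.

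MT-ND2, a complex I subunit at positions 4470 to 5511, was at 1119, 1139, 1232, 1330 and 1310 CPM in knockout replicates 1 to 5, against 1207, 1437, 1328, 1478 and 1501 CPM in parental replicates 1 to 5. Its log2 fold change was -0.18 (edgeR adjusted p = 0.0999, and 0.00704 with the block), and the groups were apart in replicates 4 and 5 only. MT-ND1 and MT-CYB, the cytochrome b of complex III, had -0.13 and -0.12 (edgeR adjusted p with the block 0.0418 and 0.0457). MT-ND4L, which overlaps MT-ND4 by a few bases, was at 638 and 633 CPM in knockout replicates 4 and 5, against 485 and 543 CPM in parental replicates 4 and 5, while replicates 1 to 3 overlapped. The fold change of MT-ND5 was -0.12 and of MT-ND6, the light-strand gene, 0.05, neither past the threshold with or without the block.

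The mitochondrial genes of complex IV and ATP synthase had fold changes near 0. MT-CO1, the catalytic subunit of complex IV, averaged 7538 ± 873 CPM in knockout and 7736 ± 638 CPM in parental cells (SD, n = 5 each). MT-CO2 and MT-CO3 had log2 fold changes of 0.0028 and -0.07, and MT-ATP8 and MT-ATP6, which overlap in sequence, 0.05 and 0.09, none past the threshold with or without the block. Per kilobase of gene, MT-CO1 had the highest level of the 13, at 4888 ± 566 CPM per kilobase in knockout and 5017 ± 414 CPM per kilobase in parental cells, followed by MT-ATP6 with 3751 ± 218 in knockout and 3535 ± 200 in parental cells. The lowest per kilobase were MT-ND2, with 1177 ± 92.1 in knockout and 1334 ± 118 in parental cells, MT-ND1, with 1235 ± 80.4 in knockout and 1348 ± 82.2 in parental cells, and MT-ND5, with 1272 ± 286 in knockout and 1379 ± 257 in parental cells, and these neighbours lay within their spread of each other. MTATP6P1, a nuclear copy on chromosome 1, was at 96.6 to 128 CPM in knockout and 96.3 to 119 CPM in parental cells, and reads that fit both it and the mitochondrial genes are divided by likelihood. The pseudogenes among the members summed to at most 9.47 CPM in any library.

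Nuclear subunit transcripts are short, with a median annotated length of 679 nt, beside 1845 nt over the protein-coding genes tested. Short transcripts as a class also differed between libraries: genes up to 605 nt lay 0.118 log2 units above the gene-wise mean in knockout replicate 3 and -0.078 in parental replicate 4, and genes over 4434 nt lay at -0.25 and 0.23 in these libraries. In both classes the sign followed the replicate set. Genes up to 605 nt were at -0.0726 and -0.0825 in knockout replicates 4 and 5 and at 0.0268 to 0.0362 in parental replicates 1 to 3. Among genes under 1000 nt, the 63 nuclear subunits had a median log2 fold change of 0.224 with the block, beside 0.00717 for 3359 protein-coding genes of that length. The 7 subunit genes of 2000 nt or more had 0.157, beside -0.0681 for 6358 coding genes. With each library's length trend removed, 21 nuclear genes rose and 3 fell, beside 21.0% and 17.3% of all genes. With the block added 49 rose and 6 fell, beside 32.8% and 29.8%. Across the 78 genes the fold change with the block had a Spearman rho of -0.119 with length, a description over genes that share the same libraries.

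**Figure D5:**
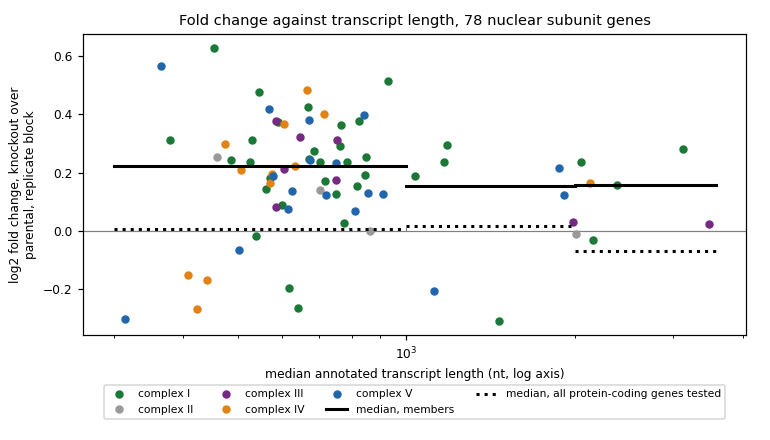
Log2 fold change with the replicate block, knockout over parental, against the median annotated transcript length in nt (log axis) for the 78 nuclear subunit genes, coloured by complex, with solid lines for the median of the subunit genes and dotted lines for the median of all tested protein-coding genes under 1000 nt, from 1000 to 2000 nt and from 2000 nt. The solid line lies above the dotted one in each length class, at 0.224 beside 0.00717 in the shortest.

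Position along the genome was also compared, since some chromosomes shifted as a whole in the knockout cells. The 11 tested subunit genes of chromosome 19 had a median log2 fold change of 0.334, beside 0.173 for the 1041 tested protein-coding genes of that chromosome. The 4 of chromosome 7 (NDUFA5, NDUFB2, NDUFA4 and ATP5MF) had -0.107, beside -0.298 for its 651 tested protein-coding genes. With chromosome medians removed, 12 nuclear subunit genes rose and 1, NDUFA9, fell, beside 20.0% and 13.5% of all genes.

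Genes that work with the subunits were counted list by list, beside 19.7% of all genes called higher and 16.9% lower, and 31.1% and 30.1% with the block. Of 17 assembly factors of complex I, 6 rose and 3 fell (35.3% and 17.6%), with a median log2 fold change of 0.137, and with the block 9 rose and 3 fell. TMEM186, which helps build the membrane arm, was at 11.5 ± 1.28 CPM in knockout and 7.74 ± 0.560 CPM in parental cells, and NDUFAF6 at 19.8 ± 1.20 CPM in knockout and 16.2 ± 0.925 CPM in parental cells (SD, n = 5 each; edgeR adjusted p = 0.000768 and 0.00637). COA1 (log2 fold change -0.25) and NDUFAF4 (-0.32) fell, and neither did with the chromosome medians removed.

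Of 12 tested assembly factors of complexes II and III, 2 rose and 3 fell (16.7% and 25.0%), with a median log2 fold change of 0.0579, and 5 were called higher and 4 lower in the blocked fit. TTC19, which keeps the Rieske protein of complex III in turnover, was at 32.6, 31.7, 34.1, 30.8 and 30.1 CPM in knockout replicates 1 to 5, against 54.2, 52.7, 53.2, 54.8 and 53.02 CPM in parental replicates 1 to 5. The libraries were far apart in both sets (log2 fold change -0.75, edgeR adjusted p = 2.89e-06, and -0.47 after subtracting the chromosome 17 median). UQCC1, a cytochrome b assembly factor on chromosome 20, had -0.40 (edgeR adjusted p = 0.000132). BCS1L, which inserts the Rieske protein, rose with 0.46 (edgeR adjusted p = 0.00881), as did UQCC5 with 0.80 (edgeR adjusted p = 0.0329), whose call was lost in 6 of the 10 fits that left out a library and held without knockout replicate 4 or 5 or parental replicate 1 or 2.

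Of 23 complex IV assembly factors, whose median log2 fold change was 0.0859, 3 were called higher and 5 lower (13% and 21.7%), with COA5 (log2 fold change 0.53) and PET117 (0.48) higher and SCO1 (-0.45), a copper chaperone, and COX19 (-0.36) lower. In the blocked fit these counts were 7 and 8. SCO1 lies on chromosome 17 and COX19 on chromosome 7, whose genes had median log2 fold changes of -0.282 and -0.298, not subtracted here. Of 5 ATP synthase assembly factors, TMEM242 fell (-0.54, edgeR adjusted p = 0.000347) and none rose, and with the block 3 fell (60%) and 0 rose. The median log2 fold change of this list was -0.228 without the block. TMEM242 lies on chromosome 6, whose genes had a median of -0.322, not subtracted here. CYCS, the cytochrome c that carries electrons between complexes III and IV, averaged 277 ± 11.2 CPM in knockout and 351 ± 18.8 CPM in parental cells (log2 fold change -0.34, edgeR adjusted p = 0.000825), and -0.04 after subtracting the chromosome 7 median. COX7A2L, a factor of supercomplex assembly, had 0.20 (edgeR adjusted p = 0.0222), lost without knockout replicate 2 or 3 or parental replicate 1 or 2.

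Of 18 genes that maintain and transcribe mitochondrial DNA, 3 rose and 7 fell (16.7% and 38.9%), and the blocked fit called 5 higher and 8 lower. Of 18 that process or stabilise its RNA, edgeR called 0 higher and 2 lower (11.1%), and 3 higher and 8 lower in the blocked fit. TK2, a mitochondrial thymidine kinase, averaged 47.5 ± 0.949 CPM in knockout and 35.0 ± 2.32 CPM in parental cells (edgeR adjusted p = 0.000225), and MTERF2 rose with a log2 fold change of 0.44. TFB1M, the methyltransferase of the small mitochondrial rRNA, had -0.48 and POLG2, the accessory subunit of the mitochondrial DNA polymerase, -0.23, and with chromosome medians removed neither passed. ELAC2, the tRNA 3′ processing enzyme, averaged 116 ± 4.37 CPM in knockout and 168 ± 3.13 CPM in parental cells (log2 fold change -0.53, edgeR adjusted p = 1.46e-05), and TBRG4 had -0.29 (edgeR adjusted p = 0.0287), lost without knockout replicate 4 or 5 or parental replicate 1, 2 or 3. ELAC2 lies on chromosome 17, whose genes had a median log2 fold change of -0.282, not subtracted here.

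Among 11 tested regulators of respiratory gene transcription, 1 rose and 3 fell (9.09% and 27.3%). PPARGC1B, a coactivator of mitochondrial genes, was at 5.03, 3.92, 4.74, 6.11 and 6.27 CPM in knockout replicates 1 to 5, against 1.78, 2.35, 1.96, 2.42 and 2.07 CPM in parental replicates 1 to 5. No libraries overlapped, and the log2 fold change was 1.30 (standard error 0.15, edgeR adjusted p = 6.48e-05). NRF1, the factor whose motif was searched above, averaged 17.8 ± 0.628 CPM in knockout and 24.0 ± 0.983 CPM in parental cells (log2 fold change -0.43, edgeR adjusted p = 0.000171, and -0.13 after subtracting the chromosome 7 median). PPRC1, a coactivator related to PPARGC1B, had -0.27 (edgeR adjusted p = 0.00128), with the chromosome 10 median of -0.176 not subtracted. YY1 had -0.07 (edgeR adjusted p = 0.368).

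Of 13 citric acid cycle enzymes other than complex II, edgeR called 0 higher and 6 lower (46.2%), and 1 higher and 7 lower in the blocked fit. Their median log2 fold change was -0.224, opposite in sign to that of the nuclear subunit genes, with no chromosome median subtracted. Of these enzymes, OGDH, MDH2 and DLD lie on chromosome 7 (median -0.298) and SUCLA2 on chromosome 13 (median -0.411). The part of these chromosome shifts in the list median was not tested. DLST, a subunit of the 2-oxoglutarate dehydrogenase complex, averaged 111 ± 5.63 CPM in knockout and 149 ± 5.29 CPM in parental cells (log2 fold change -0.42, edgeR adjusted p = 0.000168). IDH3A, the catalytic subunit of NAD-dependent isocitrate dehydrogenase, averaged 74.7 ± 4.92 CPM in knockout and 100.1 ± 10.2 CPM in parental cells (edgeR adjusted p = 0.00222). For both enzymes every knockout library lay below every parental library. The lists of other genes, like the members, were drawn up with earlier results of these data known, and their counts carry no test of the list.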

How the data were processed

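Polyadenylated RNA of 5 CCAR1 knockout and 5 parental samples was sequenced. The authors deposited 1 table of estimated counts (expected counts) per gene and library for 62700 genes, with no scaling to depth or length. The tools named per the submitters' processing notes are kallisto 0.48.0 and the hg38 build. For the annotation release, the summing of transcripts to genes and the strand setting, nothing is given in the sources used. Reads of overlapping genes and near-identical copies may be divided between them.

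For the tests the estimated counts were rounded to integers. Genes kept by edgeR's filterByExpr (18979) were scaled by TMM and fitted with edgeR 4.0.16 in R 4.3.3 by a robust quasi-likelihood model with genotype as its only term, Benjamini-Hochberg adjustment over all genes tested and a threshold of 0.05. CPM are counts per 1000000 of the TMM-scaled library and are not per length. The interaction fit had genotype, replicate set and their product. Exact permutations used log2(CPM + 0.1). Gene positions, biotypes and lengths are from a GENCODE 29 annotation of GRCh38 (92.8% of the IDs in the table matched). Biological coefficients of variation were 0.31 with genotype alone and 0.07 with the replicate set as a term. Libraries of 1 genotype and replicate set differed by 6.95 to 26.5 chi-square units a gene, more than counting noise, so none was treated as a repeat deposit of another; repeat libraries of 1 RNA could differ as much, and each labelled sample was counted as 1.

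Knockout and parental samples of the same number shared deviations from their genotype's mean (correlations across genes of 0.584 to 0.899), so the replicate number was used as a block beside the results it changes. The pairing follows the replicate sets: within a set same-numbered samples correlated at -0.06 to -0.0052. What makes the sets differ is not stated in the labels.

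The members and lists were chosen with earlier results of these data known. Named genes were the mitochondrially encoded members, SDHA to SDHD, up to 4 nuclear members each way with the smallest adjusted p in the other complexes, the isoform groups, CCAR1, and up to 2 each way from each other list; NDUFS5, NDUFS1, the other genes named from the block or from 1 replicate set, NDUFV1, NDUFS8, UQCRC1, UQCRFS1, ATP5F1B, YY1 and the genes whose promoters are printed were chosen after their values were seen. The fit was tested on simulated data. Alternatives were DESeq2 1.42.0 and its size factors, limma-voom (limma 3.58.1), library size only, TMM without the mitochondrial genes, no filter, a filter of 1 CPM in 5 libraries, the block, the replicate set as a term or alone, chromosome medians removed, each library left out, and, added after seeing the data, each library's length trend removed and the block with each library left out. The own values of 1 member are not reported here.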

Additional observations from a re-analysis of the deposited data

Results flagged for a closer look

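Within the 5 libraries of a genotype, 2 values of the named genes stood apart from the others by Dixon's ratio of gap to range, whose critical value for 5 samples is 0.71. Chance flags about 1 in 20 groups tested this way. ATP5F1C in CCAR1 knockout replicate 1 was at 102 CPM, below the other knockout libraries at 114 to 116 CPM (ratio 0.796). Without that library the log2 fold change of ATP5F1C was -0.19 and the call was lost. MT-ATP6 in parental replicate 1 was at 2170 CPM, below the other parental libraries at 2441 to 2529 CPM (ratio 0.752), and the gene passed in no fit with or without it.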

How the results depend on the processing

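Counts of nuclear subunit genes that passed depended on how the replicate sets were handled. Against 10 higher and 3 lower over all libraries, 48 and 6 passed with the replicate block, 52 and 6 with the replicate set as a term, 47 and 3 in replicates 1 to 3 alone, 33 and 11 in replicates 4 and 5 alone, 22 and 2 with library size only, 17 and 3 with the filter of 1 CPM, 21 and 3 with the length trend removed, 49 and 6 with that and the block, and 12 and 1 with chromosome medians removed. Leaving out 1 library gave 5 to 18 higher and 2 to 3 lower, and 36 to 56 higher and 5 to 6 lower with the block. The cause was not tested. Of the mitochondrially encoded genes, 0 passed in either direction without the block, but 2 were lower with DESeq2. With the block 2 were higher and 3 lower, with the replicate set as a term 1 and 3, in replicates 1 to 3 alone 1 and 1, in replicates 4 and 5 alone 2 and 3, and with the length trend removed and the block 2 and 3. Leaving out 1 library gave 0 higher and 0 to 1 lower, and 2 higher and 1 to 2 lower with the block. Over all genes 3741 were higher and 3198 lower. These became 5906 and 5713 with the block, 6200 and 5949 with the replicate set as a term, 4980 and 4931 in replicates 1 to 3 alone, 7775 and 7545 in replicates 4 and 5 alone, and 6227 and 5648 with the length trend removed and the block. Leaving out 1 library gave 3318 to 3709 and 2765 to 3196, and 5125 to 5761 and 5123 to 5789 with the block. The interaction count, 0, became 31 without a filter and ran from 0 to 56 with 1 library left out, 56 being without CCAR1 knockout replicate 1. DESeq2 size factors, TMM without the mitochondrial genes and limma-voom left the nuclear counts at 10 and 3.

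With chromosome medians removed, the signs of COA1 (0.049), NDUFAF4 (0.0053), POLG2 (0.049) and TBRG4 (0.0086) turned and none passed. NDUFV2, NDUFV3, UQCRB and NDUFA9 passed under every alternative run. On counts simulated from these libraries, the fit without the block missed most genes changed by small folds, so a small change that did not pass is not shown to be absent.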
